A study of Mus musculus with 8 samples.

Results

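Untreated EpRas cells were compared with untreated EpH4 cells, to see which accessible chromatin regions set the Ras-transformed line apart before any TGF-β is added. EpH4 is a mouse mammary gland epithelial line, and EpRas is the derivative of it that was transformed with H-Ras, so that Ras transformation is represented by 1 line. The 4 libraries compared, of 8 in the series, came from 2 replicates of each line that received no TGF-β over the 8 days of culture. The other 4 libraries came from the same lines that had received TGF-β3 at 1 ng/ml throughout those 8 days. The regions were looked up again in them, and motif, promoter and chromosome shares of their own peaks are given for comparison. Per the labels, both lines grew in F12/DMEM with penicillin and streptomycin, but EpH4 cells in 10% and EpRas cells in 4% fetal bovine serum, so that the line and the serum content cannot be told apart. Accessible chromatin had been mapped by FAIRE-seq, which sequences the DNA that stays free of protein after crosslinking, and each library was deposited as a list of peaks with a score.

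The lists held 12462 and 13092 peaks for EpH4 cells and 17210 and 13784 peaks for EpRas cells (replicates 1 and 2). The peaks of both replicates of a line were merged where they shared at least 1 bp and kept if called in both, which gave 8582 group regions in EpH4 cells and 10683 in EpRas cells, out of 25173 merged regions in the 4 lists. A group region was line-specific if it overlapped no group region of the other line. It was private if it overlapped no peak in either untreated library of the other line, which held for 1288 EpH4 and 2406 EpRas regions. The number of reads behind each list is unknown, and a region that was not called may still have been accessible.

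Oncogenic Ras keeps the ERK MAP kinase cascade active, and transcription factors of the AP-1 and ETS families are among its best known nuclear targets. Epithelial cells are held together by E-cadherin (encoded by *Cdh1*) and by tight junction proteins such as claudins, whose genes are kept active by factors that include the Grainyhead-like and Ovo-like families. The repressors of the ZEB and Snail families bind the E-box CAGGTG, and the E-boxes of the *Cdh1* promoter are their textbook target.

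The regions below are shown because they are private to a line and carry, or lack, the pair of motifs in which the private regions of the lines differed. Capitals mark the AP-1 motif (TGAGTCA, or TGACTCA on the other strand) and the E-box (CAGGTG, or CACCTG on the other strand). All are from the plus strand of GRCm38, the build of mm10, at most 300 bases around the middle of the region, and bases inside annotated exons were left out. The EpRas-private regions lie at chr9:60782475-60782774, 11.9 kb upstream of *Uaca*, at chr7:80715356-80715655 in an intron of *Iqgap1*, and at chr5:13365153-13365452 in an intron of *Sema3a*. The EpH4-private regions lie at chr8:106603184-106603350 immediately upstream of the start of *Cdh1*, at chr5:134959163-134959462, 12.4 kb upstream of *Cldn4*, at chr17:31938637-31938936, 83.0 kb upstream of *Sik1*, and at chr16:95682295-95682594, 19.6 kb upstream of *Ets2*.
Uaca upstream region (EpRas): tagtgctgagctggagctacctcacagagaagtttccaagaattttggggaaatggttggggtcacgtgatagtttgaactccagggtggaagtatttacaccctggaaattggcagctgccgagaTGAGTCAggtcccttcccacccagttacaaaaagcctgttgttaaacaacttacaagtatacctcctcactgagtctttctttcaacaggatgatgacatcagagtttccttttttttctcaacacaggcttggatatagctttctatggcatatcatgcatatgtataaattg
Iqgap1 intron (EpRas): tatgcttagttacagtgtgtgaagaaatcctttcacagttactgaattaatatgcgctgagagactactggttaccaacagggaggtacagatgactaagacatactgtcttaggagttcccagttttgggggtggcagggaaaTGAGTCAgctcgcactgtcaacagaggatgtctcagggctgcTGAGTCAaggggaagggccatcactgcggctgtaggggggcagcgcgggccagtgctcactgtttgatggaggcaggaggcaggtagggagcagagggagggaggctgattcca
Sema3a intron (EpRas): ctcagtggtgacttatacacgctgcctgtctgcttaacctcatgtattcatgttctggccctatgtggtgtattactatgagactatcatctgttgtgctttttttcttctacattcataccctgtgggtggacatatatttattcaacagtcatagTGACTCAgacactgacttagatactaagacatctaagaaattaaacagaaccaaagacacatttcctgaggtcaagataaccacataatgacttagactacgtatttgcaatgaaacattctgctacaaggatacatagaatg
Cdh1 promoter (EpH4): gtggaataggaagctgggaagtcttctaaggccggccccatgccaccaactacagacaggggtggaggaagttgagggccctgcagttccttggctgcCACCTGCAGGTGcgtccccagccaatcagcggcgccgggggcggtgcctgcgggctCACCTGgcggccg
Cldn4 upstream region (EpH4): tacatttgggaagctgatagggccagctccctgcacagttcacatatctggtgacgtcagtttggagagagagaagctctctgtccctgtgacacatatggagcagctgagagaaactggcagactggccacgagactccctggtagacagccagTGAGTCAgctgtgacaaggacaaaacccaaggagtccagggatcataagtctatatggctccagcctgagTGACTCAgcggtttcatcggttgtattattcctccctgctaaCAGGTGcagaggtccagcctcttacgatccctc
Sik1 upstream region (EpH4): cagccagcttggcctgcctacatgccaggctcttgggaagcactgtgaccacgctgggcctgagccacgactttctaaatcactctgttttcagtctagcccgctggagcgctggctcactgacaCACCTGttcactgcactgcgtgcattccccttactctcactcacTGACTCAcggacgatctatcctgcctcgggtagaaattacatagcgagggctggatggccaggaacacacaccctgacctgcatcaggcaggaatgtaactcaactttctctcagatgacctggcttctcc
Ets2 upstream region (EpH4): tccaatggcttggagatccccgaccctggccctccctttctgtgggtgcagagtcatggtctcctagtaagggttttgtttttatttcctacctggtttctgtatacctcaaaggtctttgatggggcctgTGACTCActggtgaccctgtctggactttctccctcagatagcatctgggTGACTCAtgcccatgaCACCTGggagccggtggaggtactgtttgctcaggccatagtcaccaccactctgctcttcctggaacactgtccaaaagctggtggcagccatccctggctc

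The 3 EpRas-private sequences held 1, 2 and 1 AP-1 motifs and 0 copies of the E-box. The *Cdh1* promoter sequence, which was private to EpH4 cells, held 3 copies of the E-box and 0 AP-1 motifs. Copies that start at its positions 99 and 105 lie directly next to each other, and the other copy starts at position 155 (counted from 1 at the first base shown). The other 3 EpH4-private sequences held 1 copy of the E-box each, together with 1 or 2 AP-1 motifs. These regions were picked after the values were seen. The shares over all private peaks of each library follow, and for the E-box and AP-1 also those over private regions.

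Distal private peaks of EpH4 cells carried the E-box CAGGTG more often than those of EpRas cells. A peak of a library was private if it overlapped no peak in either library of the other line with the same treatment. Unlike a private region, it did not need a call in the other replicate of its own line. A peak was distal when its midpoint lay over 2 kb from every annotated transcription start. Motifs were looked for on both strands in the 500 bp around the midpoint. The share of distal private peaks with CAGGTG was 39.2% and 38.6% in the EpH4 libraries and 25.3% and 25.5% in the EpRas libraries. The groups did not overlap, and the difference of 13.5 percentage points between 38.9% ± 0.424 and 25.4% ± 0.0855 (SD, n = 2 each) was far larger than the spread between replicates, although the two-sided exact permutation test gave p = 0.33, below which 2 against 2 libraries cannot go. Windows of the same length placed 10 kb away from the distal peaks held the motif in 31.5% to 32.3% of cases, between the lines. Distal peaks called in both libraries of the other line held it in 28.4% to 31.2% of cases. Among private regions called in both replicates, 42.4% of 972 distal EpH4 regions and 23.3% of 1608 distal EpRas regions held CAGGTG.

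The TGF-β-treated libraries, which did not enter the choice of these peaks, gave the same order. Peaks private to a line among the treated libraries held CAGGTG in 40.6% and 39.8% of distal cases in EpH4 cells and in 25% and 24.8% in EpRas cells. Many of these peaks lie at the same places as in the untreated libraries, so they are not wholly new sites. Private peaks at promoters of the untreated libraries also differed, with 40.2% and 38.8% in EpH4 cells and 27.7% and 27.1% in EpRas cells. Of 4 other E-boxes, added after these values were seen, CAGCTG was in 26.5% and 27.0% of the distal private peaks of EpH4 cells and in 26.4% and 26.9% of those of EpRas cells, so that the lines overlapped. CATCTG (35.5% and 36.2% against 35.2% and 35.0%), CACTTG (30.1% and 29.8% against 28.1% and 28.9%) and CACGTG (8.38% and 6.92% against 6.66% and 6.17%) were higher in EpH4 cells without overlap, by smaller differences. At private promoter peaks CATCTG was in 27.8% and 26.9% of EpH4 and 21.7% and 20.6% of EpRas peaks, and CACTTG in 23.3% and 23.6% against 18.3% and 20.6%. The mean GC content of the distal windows was 46.7% in both EpH4 libraries and 45.7% and 45.5% in the EpRas libraries, and its part in the motif shares was not tested.

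The AP-1 motif TGAGTCA, bound by Fos and Jun family dimers, was frequent in the private peaks of both lines. Its share was 39.1% and 40.9% of distal private peaks in EpH4 cells and 43.9% and 45.5% in EpRas cells, against 8.06% to 8.67% of control windows and 55.3% to 56.7% of the distal peaks shared with the other line. EpRas libraries were higher by 4.74 points (exact permutation, p = 0.33). The difference was 2.29 points without EpRas replicate 1, 2.82 without EpRas replicate 2 and 7.61 without EpH4 replicate 2. With TGF-β the shares of private peaks were 37.6% and 38.6% in EpH4 cells and 49.2% and 52.8% in EpRas cells. Among private regions called in both replicates, 53.9% of 1608 distal EpRas regions and 42.8% of 972 distal EpH4 regions held the motif.

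Among the other 13 motif families, the TEAD motif (CATTCCA or CATTCCT), which is bound by the partners of YAP and TAZ, was lower in EpRas cells. It was in 30.1% of distal private peaks in both EpH4 libraries and in 24.7% in both EpRas libraries, with 17.1% to 17.9% in control windows. The ETS motif (CCGGAAG or ACGGAAG, with A also allowed as the last base) was in 8.01% and 8.42% of EpH4 and 10.3% and 10.5% of EpRas private peaks, a difference of 2.23 points that was 1.33 points in windows of 200 bp. The forkhead motif TGTTTAC was in 7.17% and 6.46% against 9.30% and 9.65%. TEAD, ETS and forkhead motifs differed in the same direction between the treated libraries. The NF-κB motif (GGAATTTCC or GGACTTTCC) was in 2.27% and 2.50% of EpH4 and 1.48% and 1.07% of EpRas private peaks, and in 3.22% and 3.64% against 1.17% and 0.949% with TGF-β. The motif of the insulator protein CTCF, CCANNAGGNGGC, was in 2.92% and 4.09% against 6.39% and 5.72%, a difference of 2.55 points that was 1.30 without EpH4 replicate 1, and the lines overlapped with TGF-β (4.01% and 3.95% against 4.51% and 3.79%). RUNX (TGTGGTT, 16.7% to 17.7%) and STAT (TTCNNNGAA, 17.8% to 18.1%) motifs overlapped or nearly coincided between the lines. Over the 15 families, 12 did not overlap between the lines and 9 of these had the same order with TGF-β, and every exact permutation test was at p = 0.33 or above. The 12 include the rare motifs GRHL (0.172% to 0.375% of private peaks), CEBP (0.207% to 0.625%) and CRE (0.586% to 0.834%), whose shares rest on few peaks.

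**Figure D1:**
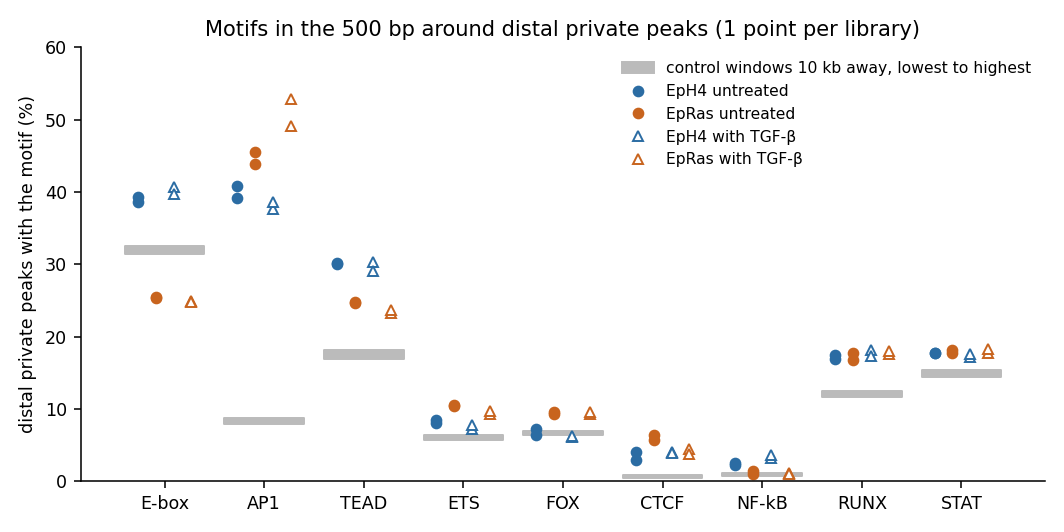
Share of distal private peaks (%) that hold each motif in the 500 bp around the midpoint, 1 point per library, with circles for untreated and triangles for TGF-β-treated libraries and gray bands for the range of control windows. For CAGGTG the EpH4 libraries sit at 38.6% to 40.6%, above the control windows, and the EpRas libraries at 24.8% to 25.5%, below them.

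Both lines had regions of their own, and their shares changed with list length. Of the EpRas group regions 4851 (45.4%) were line-specific and of the EpH4 group regions 2747 (32.0%). Private regions were 22.5% of the EpRas group regions (Wilson 95% interval 21.7 to 23.3) and 15.0% of the EpH4 group regions (14.3 to 15.8). Intervals cover counting error only. The rest of the line-specific regions, 2445 in EpRas and 1459 in EpH4 cells, met a peak of the other line in 1 of its libraries, except for 5 and 2 regions that met separate peaks in both. The order of the private shares turned when the lists were of equal length. With the 12462 highest-scored peaks of each list, 18.4% of EpRas and 20.3% of EpH4 group regions were private, and 40.8% and 40.4% line-specific.

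Replicates of 1 line also missed each other's peaks. Of the EpRas peaks, 37.8% (replicate 1) and 22.3% (replicate 2) had no partner in the other EpRas library, and 42.1% to 49.5% had none in an EpH4 library. Of the EpH4 peaks, 31.0% and 34.4% had no partner in the other EpH4 library, and 30.3% to 39.0% had none in an EpRas library, so that the loss of EpH4 peaks between the lines was near that between replicates. The number of peaks differed by 0.27 on the log2 scale (p = 0.33, exact permutation, 2 libraries per line), which became 0.11 without EpRas replicate 1 and 0.43 without EpRas replicate 2.

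**Figure D2:**
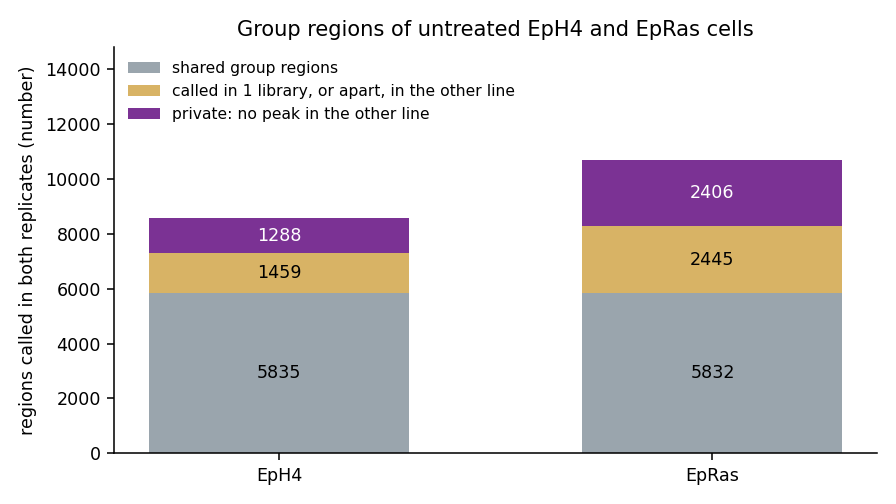
Number of group regions (called in both replicates) of each untreated line, stacked by their overlap with the other line. Private regions number 1288 in EpH4 and 2406 in EpRas cells, and shared regions 5835 and 5832.

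Private regions ranked lower in their own lists than shared regions did. The score, of which only the rank was used, was expressed as the percentile within each list, with 100 for the highest. The median of the mean percentile over both replicates was 42.2 for EpRas-private and 43.2 for EpH4-private regions, against 68.7 and 63.7 for shared regions. Only 21 EpRas-private and 20 EpH4-private regions had a mean percentile of 90 or more. Private regions were also narrower, with a median width of 280 bp in EpRas and 285 bp in EpH4 cells against 346 and 331 bp for shared regions.

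Most private regions of EpRas cells were found again in EpRas cells given TGF-β. They were called in 87.5% and 65.3% of cases in the EpRas and in 39.5% and 18.3% in the EpH4 treated libraries (replicates 1 and 2). EpH4-private regions were called in 75.2% and 48.7% of cases in the EpH4 and in 44.8% and 23.7% in the EpRas treated libraries. Within each replicate number the own line was higher, but for EpH4-private regions the lower own-line value of 48.7% was close to the higher other-line value of 44.8%. In both lines replicate 1, with the longer list, gave the higher value (17927 and 10821 peaks in EpH4, 27337 and 16833 in EpRas). The mean difference between own and other line was 47.5 points for EpRas-private and 27.7 points for EpH4-private regions. With 10821 peaks in each of the 8 lists it was 30.6 and 37.9 points, so that the order of the lines turned. For EpH4-private regions the difference fell to between 12.1 and 14.6 points without EpH4 replicate 1, EpH4 replicate 2, EpRas replicate 1 (all untreated) or TGF-β-treated EpH4 replicate 1, and to 17.1 points without TGF-β-treated EpRas replicate 2. Of the 2406 EpRas-private regions 735 (30.5%) were called in both treated EpRas libraries and in no treated EpH4 library, and of the 1288 EpH4-private regions 279 (21.7%) the other way round. Only 11 EpRas-private and 27 EpH4-private regions crossed over fully, being called in both treated libraries of the other line and in neither of their own.

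**Figure D3:**
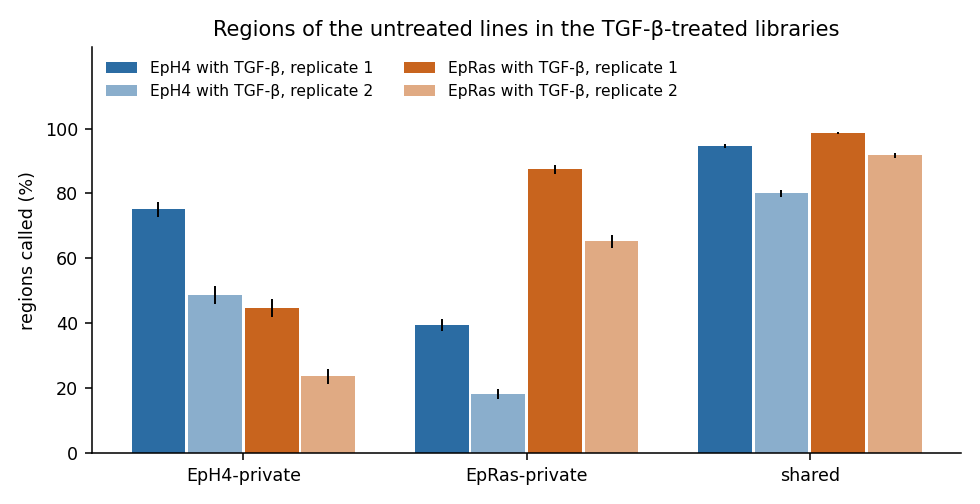
Share of private and shared regions (%) that overlap a peak in each TGF-β-treated library, with Wilson 95% intervals as error bars. EpRas-private regions reach 87.5% and 65.3% in treated EpRas libraries and 39.5% and 18.3% in treated EpH4 libraries, while shared regions reach 80.1% to 98.6%.

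Promoters of epithelial genes were among those called in EpH4 cells only. Of 21951 protein-coding genes, 214 (0.975%) had a peak within 2 kb of a start in both EpH4 and in neither EpRas library. Of the 36 genes of the epithelial list these were 4: *Cdh1*, *Cldn4*, which encodes a claudin of tight junctions, *Ovol1*, a zinc finger factor that restrains the mesenchymal program, and *St14*, which encodes the membrane protease matriptase. In the other direction 665 genes (3.03%) had a promoter peak in both EpRas and in neither EpH4 library, and 0 of the 36 were among them. Per library, promoters of 16 and 14 epithelial genes were called in EpH4 cells and of 11 and 6 in EpRas cells, so that the EpRas replicates also differed from each other. The gene lists were drawn up with results of these data known, and the counts are a description.

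The *Cdh1* promoter region (chr8:106603184-106603430) was at percentiles 60.4 and 51.8 in the EpH4 libraries and at 54.3 and 40.8 in the treated EpH4 libraries, and was called in 0 of the 4 EpRas libraries. A further EpH4-private region lay in an intron 12.8 kb downstream of the start (percentiles 14.8 and 74.0), with an AP-1 motif and an E-box. The EpRas libraries had a private region of their own 16.4 kb downstream of the start (33.7 and 58.4), with an AP-1 motif and no E-box. With TGF-β the intronic EpH4 region was at 74.4 and 79.1 in EpH4 cells and the EpRas one at 85.2 and 40.5 in EpRas cells, each again uncalled in the other line. All of these regions were middle-ranked, and the intronic ones differed widely between replicates. Within 5 Mb of *Cdh1* there were 11 EpRas-private and 5 EpH4-private regions.

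*Cldn4* had 3 EpH4-private regions in a stretch of 12.6 kb, at its promoter (percentiles 53.1 and 81.2), 8.75 kb upstream (17.4 and 48.1) and 12.4 kb upstream (77.6 and 76.2). With TGF-β 1 EpRas library had a peak at the promoter (23.7), and both had peaks at the upstream regions. *Cldn4* lies on chromosome 5, where EpH4-private regions were frequent, with 31 of them within 5 Mb against 3 of EpRas cells. The *Ovol1* promoter was at percentiles 9.48 and 80.2, and the *St14* promoter at 64.7 and 31.1. Neither was called in a treated EpRas library, but *St14* was not called in a treated EpH4 library either, and *Ovol1* in 1 of 2 (percentile 3.8). Of the 4 genes, *Cldn4* on chromosome 5 and *St14* on chromosome 9 lie on chromosomes that were lower as a whole in EpRas cells. *Ovol1* lies on chromosome 19, which was lower by less (5.09% and 5.08% of peaks in EpH4, 4.13% and 4.56% in EpRas cells). On chromosome 8, where *Cdh1* lies, the shares of peaks overlapped between the lines.

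Nearest to the 36 epithelial genes lay 12 EpH4-private regions around 8 genes (22.2%) and 2 EpRas-private regions around 2 genes (5.56%). Over all protein-coding genes, 5.03% were nearest to an EpH4-private and 9.18% to an EpRas-private region. Several other lists given below were also above the background of EpH4-private regions. *Grhl2*, which encodes a Grainyhead-like factor, had 2 EpH4-private regions, 34.9 kb upstream (4.68 and 67.4) and 80.1 kb downstream of the start (61.2 and 86.1). *Trp63* on chromosome 16, which encodes the p63 factor of basal epithelial cells, had 4 of them, at percentiles from 7.72 to 79.4. Chromosome 16 was lower as a whole in EpRas cells. In the *Trp63* gene with 20 kb on each side, 5 and 4 peaks were called in EpH4 cells, 1 and 1 in EpRas cells, 7 and 4 in treated EpH4 cells and 2 and 1 in treated EpRas cells.

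Private regions of both lines lay near targets of the ERK cascade, as they did near genes of several other lists given below. Of 34 genes listed as MAPK targets and feedback regulators, 4 had a promoter called only in EpRas cells (background 3.03%) and 0 only in EpH4 cells (background 0.975%). They were *Spred2*, an inhibitor of Ras signaling, *Etv1*, an ETS factor, *Junb*, an AP-1 subunit, and *Epha4*, an ephrin receptor. Over all genes such calls also leaned to EpRas cells, with 665 against 214. Per library, 15 and 15 promoters of the list were called in EpH4 cells and 21 and 16 in EpRas cells. EpRas-private regions were nearest to 13 of the 34 genes (38.2%, background 9.18%) and EpH4-private regions to 8 (23.5%, background 5.03%), so that the list was above the background in both lines. Among the 20 EpRas-private regions, 4 were nearest to *Jun*, 2 each to *Etv1*, *Myc*, *Hmga2* and *Epha4*, and 1 each to 8 others that include *Dusp6*, *Spry1* and *Etv5*. Among the 9 EpH4-private regions, 2 were nearest to *Myc* and 1 each to 7 genes that include *Dusp4*, *Dusp5*, *Spry1* and *Fosl2*.

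The *Spred2* promoter region (chr11:19923991-19924467) was at percentiles 75.1 and 32.2 in the EpRas libraries and at 51.7 and 48.9 in the treated ones, and was not called in any EpH4 library. At *Etv1*, the promoter region (chr12:38778500-38778859) was at 51.7 and 61.0, and an intronic region 60.5 kb downstream of the start at 65.0 and 7.16. EpH4 cells had 0 peaks in the *Etv1* gene with 20 kb on each side in all 4 libraries, and EpRas cells had 2, 3, 3 and 2. Within 5 Mb of *Etv1* there were 8 EpRas-private and 0 EpH4-private regions, and chromosome 12 was higher as a whole in EpRas cells. *Epha4* on chromosome 1 had 0 peaks in the 4 EpH4 libraries and 2, 2, 2 and 1 in the EpRas libraries, and its promoter region (72.4 and 21.4) was not called with TGF-β. For *Junb* the promoter call differed between the lines, but 0 private regions were nearest to it, and its locus held 2 and 3 peaks in EpH4 and 4 and 4 in EpRas cells.

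The promoter of *Jun* itself was called in all 8 libraries. Its 4 EpRas-private regions lay at 26.1 kb downstream and at 46.3, 55.4 and 109 kb upstream of the start, at percentiles from 2.67 to 75.4, and 2 of the 4 were also called in treated EpH4 cells. *Jun* lies on chromosome 4, which was higher as a whole in EpRas cells, with 9 EpRas-private and 1 EpH4-private regions within 5 Mb. *Etv4* and *Etv5* had promoters called in all 8 libraries, and *Etv5* had 1 EpRas-private region 47.2 kb downstream of the start (55.7 and 88.5) with an AP-1 motif. Among the 26 ETS family genes, EpH4-private regions were nearest to 6 genes (23.1%, background 5.03%), with 8 regions, 3 of them at *Ets2*. Of these 6, *Ets2* on chromosome 16 and *Etv6* on chromosome 6 lie on chromosomes that were lower as a whole in EpRas cells. *Elf1* lies on chromosome 14, which was higher as a whole. *Elk1*, *Elk3* and *Elk4* lie on chromosomes X, 10 and 1, where the ratio of EpRas to EpH4 shares of peaks was 1.11, 1.01 and 1.04. EpRas-private regions were nearest to *Etv1* and *Etv5* (7.69%, background 9.18%), with 3 regions. Promoters of *Etv6* and *Elk1* were called only in EpH4 cells and that of *Etv1* only in EpRas cells. The 30 components of the Ras-ERK pathway had 1 promoter called only in EpRas cells, that of *Sos2*, a nucleotide exchange factor of Ras, and 0 called only in EpH4 cells, near the backgrounds of 3.03% and 0.975%. EpRas-private regions were nearest to 7 of these 30 genes (23.3%, background 9.18%) and EpH4-private regions to 4 (13.3%, background 5.03%).

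Mesenchymal genes stayed near the background. Of the 38 genes of the mesenchymal and matrix list, 27 had no promoter peak in any of the 4 libraries (63.2% of all protein-coding genes had none), 0 had a promoter called only in EpRas cells and 1, *Tgfbi*, only in EpH4 cells. EpRas-private regions were nearest to 4 of them (10.5%, background 9.18%), with 4 regions at *Thbs1* (thrombospondin), 2 at *Twist2*, 2 at *Tnc* (tenascin C) and 1 at *Twist1*. EpH4-private regions were nearest to *Fn1*, *Snai1* and *Tgfbi*, 1 each (7.89% of the list, background 5.03%). At *Cdh2*, which encodes N-cadherin, EpH4 cells had 0 peaks in all 4 libraries, and EpRas cells had 2 and 1 untreated and 2 and 2 with TGF-β. The untreated EpRas peaks did not overlap between the replicates, so that *Cdh2* had 0 group regions. The promoter of *Fn1*, which encodes fibronectin, was called in 1 of 2 EpH4 and in 2 of 2 EpRas libraries. *Esrp2*, *Mmp13* and *Gapdh* had 0 private regions in either line, and the *Gapdh* promoter was called in all 8 libraries.

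Of 22 genes of the cell cycle and arrest list, 5 (22.7%, background 9.18%) were nearest to 7 EpRas-private regions and 0 to an EpH4-private region. *Cdkn2b*, which encodes the inhibitor p15, had 3 of these in a stretch of 8.41 kb at 168 to 176 kb upstream of its start, and *Cdkn2a*, which encodes p16 and p19, had 1. They lie on chromosome 4, where 33 EpRas-private regions and 1 EpH4-private region lay within 5 Mb of *Cdkn2b*. Of the 21 inflammatory ligand genes, promoters of the chemokine gene *Cxcl1* and of *Tnf* were called only in EpH4 cells, and private regions were nearest to 3 genes in EpRas (14.3%, background 9.18%) and to 4 in EpH4 cells (19%, background 5.03%). Shares above the background were common among the lists: EpRas-private regions were nearest to 6 of 13 *Runx*, *Nfi* and *Cebp* genes, 7 of 28 genes of the TGF-β pathway, 7 of 28 integrin and laminin genes, 4 of 20 AP-1 family genes and 2 of 10 housekeeping genes. EpH4-private regions were nearest to 3, 5, 4, 5 and 0 of these. The backgrounds were 9.18% and 5.03%. Of 14 genes of EGF receptors and their ligands, 2 had EpRas-private (14.3%, background 9.18%) and 3 had EpH4-private regions nearest to them (21.4%, background 5.03%), and 0 had a promoter called in 1 line only.

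**Figure D4:**
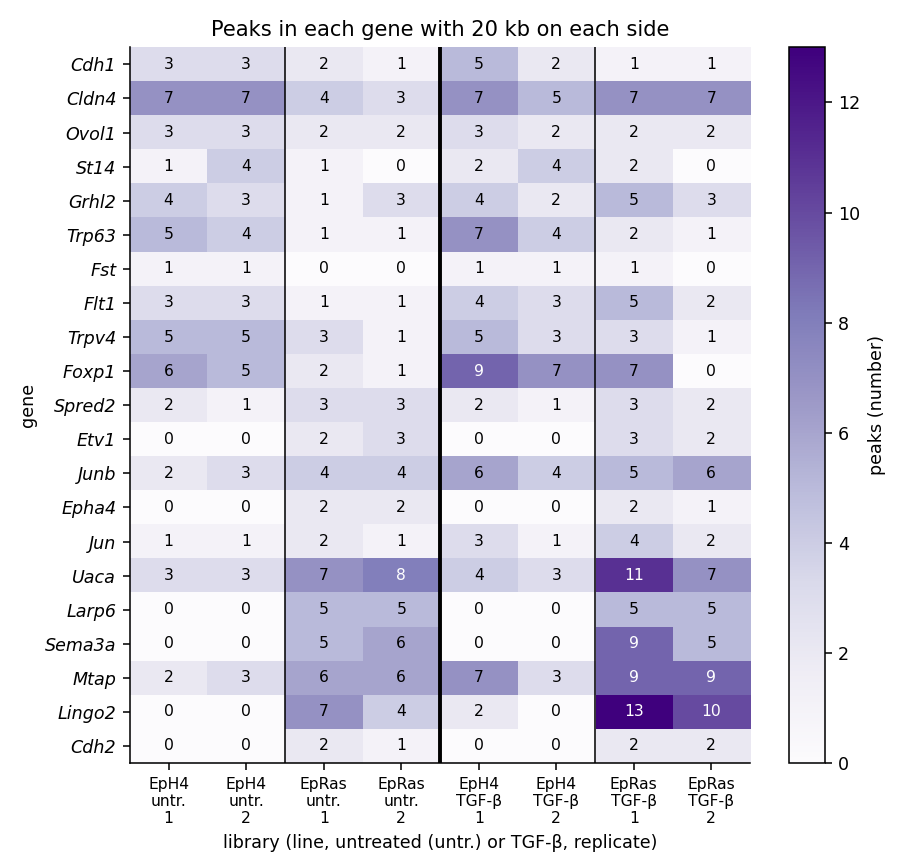
Number of peaks in each library within selected genes extended by 20 kb on each side, with the 4 untreated libraries on the left and the 4 TGF-β-treated libraries on the right. The genes were selected after their values were seen. In it *Etv1*, *Epha4*, *Larp6*, *Sema3a* and *Cdh2* have 0 peaks in all 4 EpH4 libraries, and *Trp63* has 4 to 7 in EpH4 and 1 to 2 in EpRas libraries.

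The run with the most EpRas-private regions lay on chromosome 9 near *Larp6*, which encodes an RNA-binding protein of collagen mRNAs, and *Uaca*. It held 5 regions in 38.4 kb (chr9:60718329-60756704) with a mean percentile of 81.7, and 4 regions each were nearest to *Larp6* and to *Uaca*. The *Larp6* gene with 20 kb on each side held 5 peaks in each of the 4 EpRas libraries and 0 in each of the 4 EpH4 libraries. The highest-ranked EpRas-private region lay 11.9 kb upstream of *Uaca* (chr9:60782435-60782815, percentiles 98.2 and 99.2), and another lay in an intron of *Uaca* (chr9:60848699-60849115, 99.5 and 97.4). In the treated EpRas libraries they were at 94.5 and 77.1 and at 99.2 and 99.6, and neither was called in a treated EpH4 library. Chromosome 9 as a whole was lower in EpRas cells, and within 5 Mb of *Uaca* there were 19 EpRas-private and 16 EpH4-private regions.

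*Lingo2* had the most EpRas-private regions, 6, spread from 2.00 to 1028 kb from a start. It lies on chromosome 4, which was higher as a whole in EpRas cells. The *Lingo2* gene with 20 kb on each side held 7 and 4 peaks in EpRas cells, 0 and 0 in EpH4 cells, 13 and 10 in treated EpRas and 2 and 0 in treated EpH4 cells. *Sema3a*, which encodes a secreted semaphorin, had 4 EpRas-private regions, and its locus held 5 and 6 peaks in EpRas and 0 in all 4 EpH4 libraries. All of the 4 regions held an AP-1 motif. *Mtap* had 4 and lies on the same stretch of chromosome 4 as *Cdkn2b*, where 2 further runs of 4 EpRas-private regions were found (chr4:88714303-88738798, mean percentile 86.5, and chr4:86671913-86713282, 57.1). Other top-ranked EpRas-private regions were in an intron of *Iqgap1*, which encodes a scaffold of actin and MAPK signaling (chr7:80715337-80715674, percentiles 96.3 and 92.0), and at the promoter of *Entpd6* (chr2:150748851-150749156, 97.0 and 95.1). Treated EpH4 replicate 1 had a peak at both, at percentiles 83.2 (*Iqgap1*) and 50.6 (*Entpd6*). Of the 10 highest-ranked EpRas-private regions, 10 were called in both treated EpRas libraries and 4 in at least 1 treated EpH4 library.

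In EpH4 cells 7 genes were nearest to 4 private regions each: *Sik1*, a kinase of the LKB1 pathway, *Flt1*, a VEGF receptor, *Trpv4*, a calcium channel, *Fst*, the activin antagonist follistatin, *Basp1*, *Foxp1* and *Trp63*. *Basp1* also had 3 EpRas-private regions and *Foxp1* had 1. Of the 7 genes, *Flt1* and *Trpv4* lie on chromosome 5, *Foxp1* on chromosome 6 and *Trp63* on chromosome 16. These chromosomes were lower as a whole in EpRas cells. Chromosome 13, where *Fst* lies, was lower too, with a ratio of EpRas to EpH4 shares of peaks of 0.81. The ratio was 1.08 on chromosome 17 (*Sik1*) and 1.14 on chromosome 15 (*Basp1*). The largest run, with 4 regions in 54.7 kb, lay upstream of *Fst* (chr13:114584566-114639243) and ranked low, with a mean percentile of 33.1. Runs of 3 lay upstream of *Flt1* (chr5:147748048-147779016, mean percentile 74.7) and at *Trpv4* (chr5:114647682-114665129, 65.9). Among the 10 highest-ranked EpH4-private regions was 1 that lay 6.8 kb upstream of *P2rx7*, which encodes an ATP-gated channel (98.5 and 98.5), but both treated EpRas libraries had a peak there (82.6 and 46.4). Of the 10 highest-ranked EpH4-private regions, 6 held the E-box and 4 the AP-1 motif, and of the 10 EpRas-private ones 2 and 3 did.

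Among high-ranked promoters, those of *Taok3* (93.2 and 94.3), a kinase, *Lnx1* (89.5 and 95.1) and *Ankrd22* (94.9 and 89.3) were private to EpH4 cells. Those of *Entpd6*, *Ctnnbip1* (91.0 and 92.3), which encodes an inhibitor of β-catenin, *Nop56* (87.3 and 96.0), a box C/D snoRNP protein, *Ino80* (97.5 and 83.9), a chromatin remodeler, and *Dlgap5* (92.3 and 88.5), a mitotic spindle protein, were private to EpRas cells. Both treated EpRas libraries had a peak at the *Taok3* promoter (83.6 and 93.0). Of the 10 highest-ranked promoters of each line, 8 of the EpRas-private ones and 2 of the EpH4-private ones had a peak in at least 1 treated library of the other line.

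Private regions lay less often at promoters than shared regions. The promoter share was 33.2% of EpRas-private and 24.5% of EpH4-private regions, against 48.7% of shared regions. In the untreated libraries, 32.5% and 32.3% of the private peaks of EpRas cells and 26.5% and 27.2% of those of EpH4 cells were at promoters, and the groups did not overlap (p = 0.33, exact permutation). The order was not found with TGF-β, where the shares were 23.8% and 23.0% in EpRas and 24.6% and 25.1% in EpH4 cells. The difference of 8.63 points between the private regions was 1.68 without EpRas replicate 1 and 4.51 without EpRas replicate 2. Of the 665 genes with a promoter called only in EpRas cells, 380 were called in both treated EpRas and 126 in both treated EpH4 libraries. Of the 214 genes called only in EpH4 cells, 76 were called in both treated EpH4 and 53 in both treated EpRas libraries.

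Whole chromosomes differed between the lines. Of 20 chromosomes, 18 had shares of peaks that did not overlap between the lines, and all 18 differed in the same direction with TGF-β. The ratio of the EpRas to the EpH4 share was 1.28 to 1.62 on chromosomes 2, 4, 12, 14 and 18 and 0.659 to 0.772 on chromosomes 5, 6, 9 and 16. The 5 chromosomes that were higher held 32.4% of EpRas-private but 12.4% of EpH4-private regions and 16.4% of shared regions. The 4 that were lower held 10.5%, 32.6% and 19.6%. Of the 10 highest-ranked private regions, 8 in EpRas and 7 in EpH4 cells were on these 9 chromosomes. Whether DNA copy number differed between the lines was not tested. Without the 9 chromosomes the difference for CAGGTG was 14.3 points and that for AP-1 5.37 points, while the NF-κB difference went from 1.11 to 1.93 points. EpRas-private regions were then 20.9% and EpH4-private regions 13.6% of the group regions.

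**Figure D5:**
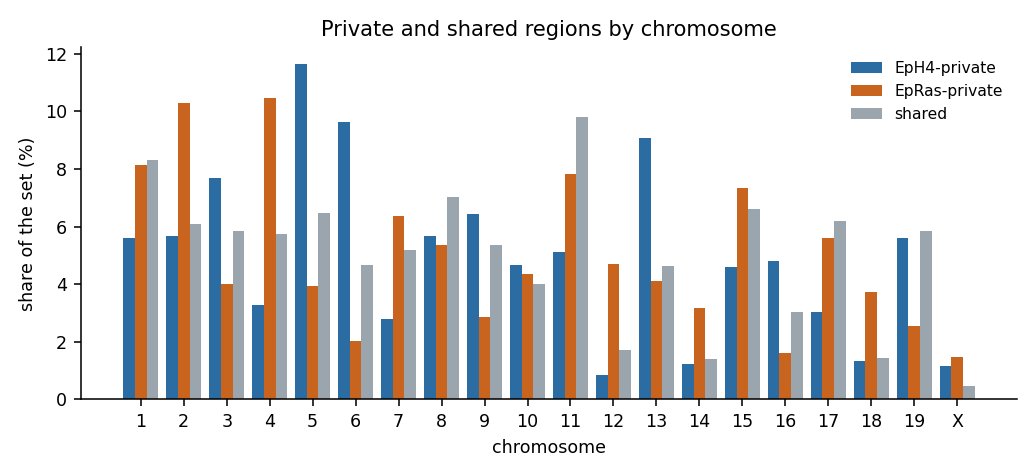
Share of EpH4-private, EpRas-private and shared regions (%) on each chromosome. Chromosome 12 holds 4.70% of EpRas-private and 0.854% of EpH4-private regions, and chromosome 6 holds 2.04% and 9.63%.

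Regions called in all 4 untreated libraries were tested for a change of rank. Of 5834 such regions, 0 (0%) ranked higher and 0 (0%) lower in EpRas cells at an adjusted p under 0.05 (limma on normal scores of the within-list rank, Benjamini-Hochberg), and 520 (8.91%) had an unadjusted p under 0.05. The test had little power: in simulated data with 2 against 2 libraries it recovered 0% of regions moved by 2 SD and 54% of those moved by 6 SD. The SD is that of the normal scores over all regions, not of the spread between replicates. On that scale the *Pced1b* region named below differed by 4.26. Spearman's rank correlation over the regions was 0.41 between the EpH4 and 0.49 between the EpRas replicates and 0.32 to 0.35 between lines. With the log2 score in place of the rank, 3 regions passed. A region in an intron of *Pced1b* (chr15:97315341-97315848), at percentiles 0.738 and 0.222 in EpH4 and 94.1 and 97.8 in EpRas cells, was higher in EpRas cells (limma, adjusted p = 0.0171). The others were a promoter region of *Gm13290* on chromosome 4 (adjusted p = 0.0466 by limma) and, in the other direction, an intergenic region nearest to *Gm45871* (adjusted p = 0.0449 by limma).

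Markers of other cell types were checked by promoter calls. Promoters of endothelial (8 genes), neuronal (7) and adipocyte markers (5) were called in 0 of the 4 untreated libraries, and those of 10 immune markers in 0 libraries except for 1 gene in EpRas replicate 1. Of 8 fibroblast markers, 0 and 1 were called in EpH4 and 2 and 0 in EpRas cells. Of the mammary markers, 13 of 18 luminal and 10 of 16 basal promoters were called in none of the 4 libraries, against 63.2% of all protein-coding genes. *Gata3*, a luminal factor, had a promoter called only in EpRas cells (59.9 and 29.4), with a peak in 1 treated EpH4 library, and *Lama3*, a basal laminin chain, only in EpH4 cells. A promoter that is not called does not show that the gene is silent.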

How the data were processed

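Members and gene lists were chosen with earlier results of these data known. Per the study's methods, the authors sequenced 2 biological replicates per group, trimmed reads, aligned them to mm10 (Bowtie2) and identified enriched regions with MACS2 2.0.9 under a q-value limit. Whether it was run per library is not given in the sources used here, but 1 list per library was deposited. The deposited values were peak positions and a score whose meaning the authors did not state, so it was used for ranks only. Control samples, duplicate handling and read depth are not given in the sources used here. P-values measure the spread between 2 libraries per group.

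Overlap meant at least 1 bp. Peaks were annotated with GENCODE vM21 (basic) on GRCm38.p6, and 0 peaks reached beyond a chromosome end. Motifs were exact matches on both strands. Besides those spelled out in the report, CRE (TGACGTCA), NFI (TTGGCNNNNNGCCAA), CEBP (TTGCGCAA or TTACGCAA), GRHL (AACCGGTT), KLF/SP (GGGGCGG) and TCF/LEF (ATCAAAG) were scanned. Control windows lay 10 kb downstream of distal peaks and touched no peak of any library. An exact permutation test over 6 assignments compared means of 2 against 2 libraries. Ranks of regions called in all 4 libraries were tested with limma 3.58.1 (R 4.3.3). Overlap code was checked against bedtools 2.31.1 and the rank test on simulated data. Named were *Etv4*, *Etv5*, *Fn1*, *Cdh1*, *Cdh2*, *Mmp13*, *Gapdh* and *Esrp2*, the 10 highest-ranked private regions and private promoters per line, the 5 genes with most private regions, the 3 largest runs, and list members with a promoter called in 1 line only or at least 3 private regions; examples were taken from these, and others were chosen after their values were seen. Some regions that the rule names are not reported here. Alternatives were equal list lengths, other overlaps, windows and limits, either replicate, and leaving out libraries or chromosomes.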

Additional observations from a re-analysis of the deposited data

How the results depend on the processing

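Of 135 recomputed values of 17 results, 90 stayed within the spread between replicates or kept their direction and 45 moved beyond it, and 0 changed sign. Shares of group regions and the count of the rank test are never negative, so they could not change sign. The spread was not always that of the result itself. For shares of group regions it was the SD of the private share of peaks per library (1.11 points in EpH4, 4.30 in EpRas cells). For promoter differences it came from the promoter share of private peaks (0.51 points). For own minus other line the spread was wide, at 23.9 points for EpH4-private and 21.7 for EpRas-private regions. The tally does not score the order of the private shares, which turned with equal numbers of peaks (18.4% in EpRas, 20.3% in EpH4). With equal numbers of peaks, 40.4% of EpH4 and 40.8% of EpRas group regions were line-specific and 20.3% of EpH4 group regions private, and the promoter share differed between the lines by 10.4 points (line-specific) and 12.0 points (private). With the highest-scored 6000 peaks per list, 50.5% of EpH4 and 52.5% of EpRas group regions were line-specific and 25.3% of EpH4 group regions private. With scores at or above the pooled median, line-specific regions were 40.6% (EpH4) and 59.7% (EpRas) and private regions 17.9% and 29.4%. With regions called in either replicate, where line-specific and private coincide by construction, the shares were 29.1% and 40.8%. A promoter window of 1 kb gave promoter differences of 8.03 (line-specific) and 9.25 points (private). Without the 9 uneven chromosomes, an alternative chosen after seeing the data, EpH4-specific regions were 28.3%, EpH4-private regions 13.6%, and the promoter difference of private regions 6.86 points. The log2 score gave 3 regions in the rank test in place of 0. The cause of these moves was not tested.

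Leaving out 1 library, after which its group needs 1 call in place of 2, gave EpH4-specific shares of 20.3% to 45.2%, EpRas-specific 33.0% to 60.1%, EpH4-private 20.3% to 26.8% and EpRas-private 31.1% to 37.2%. Promoter differences were 4.40 to 8.88 points (line-specific) and 1.68 to 11.1 points (private). The CAGGTG difference stayed between −13.8 and −12.1 points (EpRas minus EpH4) and was −12.2 with equal numbers and −11.6 in windows of 200 bp, and that of AP-1 was between 2.29 and 7.61 points. The difference between own and other line in treated libraries was 12.1 to 40.9 points for EpH4-private and 36.4 to 58.6 points for EpRas-private regions, and that of the peak number 0.11 to 0.43 on the log2 scale. Leave-one-out values of motifs, treated libraries and peak number were added after seeing the data. The rank test gave 0 regions in all 4 leave-outs. With the replicate block it also gave 0, and permuting within replicate number left the peak number difference at 0.27 (p = 0.5 by exact permutation, the smallest possible). Replicate numbers did not pair the samples: deviations of replicate 1 correlated by 0.026 between the lines.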
